A study of Rattus norvegicus with 9 samples.

Results

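The matrix metalloproteinases and their tissue inhibitors were followed in rat pinealocytes after knockdown of the homeobox transcription factors Bsx and Lhx4. The 10 genes are Mmp2, Mmp3, Mmp9, Mmp10, Mmp14 and Mmp15, which encode metalloproteinases, and Timp1, Timp2, Timp3 and Timp4, which encode inhibitors. They were taken by name, and each is present in both deposited tables of all genes, which hold the same 26854 genes. The list was chosen with fold changes of these tables in view, so the values below describe the 10 genes, and the p-values printed beside them are no independent evidence for the family.

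Pinealocytes, which make melatonin in the pineal gland, were isolated from adult Sprague-Dawley rats, cultured and transfected with siRNA at 40 nM. One group received siRNA against Bsx (siBsx), another siRNA against Lhx4 (siLhx4), and the control group a non-targeting siRNA (siNT), with 3 libraries in each group. All 3 groups share the same culture with fetal bovine serum and the same transfection reagent, and cells were harvested on day 3. Each target was knocked down with 1 siRNA sequence, and the labels do not say whether the triplicates came from separate cultures or animals, so the p-values measure the spread between these samples, which may be technical.

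Matrix metalloproteinases are zinc-dependent endopeptidases that cut collagens, laminins, fibronectin and other proteins outside the cell. Most are made as inactive proenzymes, become active when their propeptide is removed, and are blocked by TIMPs, which occupy the active site. In endocrine and nervous tissue they remodel the matrix around cells and vessels, and several respond to the AP-1 factors of the Jun and Fos families.

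Values of single libraries were not analysed here for any of the 10 genes. Group means of normalized counts were worked out from each gene's deposited mean and fold change, and carry no SD. The implied spread between libraries is a coefficient of variation worked out from the standard error of the deposited siBsx over siNT fit. It is the part beyond counting noise, which is left out, and takes all size factors as 1. It is also a value of the fitted model and was not measured from single libraries. Dispersions implied by the siLhx4 fit were nearly the same, with a median ratio of 0.979 to those of the siBsx fit. An SE after ± belongs to a log2 fold change. A gene was called when its Benjamini-Hochberg adjusted p was under 0.05 among the 14876 tested genes, and all 10 genes were tested. Over all tested genes the median log2 fold change was 0.0002 for siBsx over siNT, 0.003 for siLhx4 over siNT and 0.002 for siBsx over siLhx4. The libraries are bulk samples, so fewer cells of a type and less RNA per cell cannot be told apart. Totals per library are not known from the tables; the siLhx4 and siNT size factors spanned 0.761 to 1.46, and those of siBsx are not known.

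Both targets were lower with their own siRNA. Lhx4 averaged 3535 ± 108 normalized counts in siLhx4 libraries and 18816 ± 432 in siNT libraries (SD, n = 3 each). In the authors' deposited tables Bsx fell by 2.27 ± 0.062 with siBsx (log2, SE; adjusted p by DESeq2 = 5.25e-294). The same tables show that Bsx also fell with siLhx4, by 0.86 ± 0.060 (adjusted p by DESeq2 = 3.23e-44), so a change with siLhx4 was measured in cells with less Bsx mRNA as well. The labelled cell type was checked on 13 pinealocyte genes, all of them tested, and Otx2, also listed, was not found. With siBsx 5 of the 13 rose (Sag, Gngt1, Pax4, Lhx4 and Asmt) and 5 fell, Bsx among them. With siLhx4 none rose and 8 fell, Lhx4 and Bsx among them. Of all tested genes, 7.59% rose and 9.61% fell with siBsx, and 8.07% rose and 9.59% fell with siLhx4. Tph1, the first enzyme of melatonin synthesis, averaged 415142 normalized counts in siBsx cells, 348154 in siLhx4 cells and 455478 in siNT cells. Aanat, the rhythm-setting enzyme of the pathway, averaged 15323 normalized counts in siBsx cells, 12274 in siLhx4 cells and 18319 in siNT cells.

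Promoter sequence is shown for the genes that moved most and for one inhibitor that moved the other way, because Mmp3 and Mmp10 fell together with siLhx4. RefSeq promoter windows (build GRCr8, 250 bases before to 50 after the start) were found for 7 of the 10 genes: Mmp3, Mmp10, Mmp15 and the 4 Timp genes. The windows were searched on both strands for the AP-1 element TGAGTCA, the TATA box TATAAA and the homeodomain core TAATTA. The 250 bases before the start follow, 5′ to 3′ on the gene's strand, with matches in capitals. They lie at chr8:12925031-12925280 on the plus strand for Mmp3, chr8:12974457-12974706 on the plus strand for Mmp10, chr19:9691001-9691250 on the minus strand for Mmp15 and chrX:3771123-3771372 on the minus strand for Timp1.
Mmp3: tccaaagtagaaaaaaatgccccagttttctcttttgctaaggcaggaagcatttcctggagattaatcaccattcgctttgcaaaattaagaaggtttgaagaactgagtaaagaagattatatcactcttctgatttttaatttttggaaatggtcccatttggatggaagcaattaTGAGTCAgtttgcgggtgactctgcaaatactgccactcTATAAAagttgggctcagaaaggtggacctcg
Mmp10: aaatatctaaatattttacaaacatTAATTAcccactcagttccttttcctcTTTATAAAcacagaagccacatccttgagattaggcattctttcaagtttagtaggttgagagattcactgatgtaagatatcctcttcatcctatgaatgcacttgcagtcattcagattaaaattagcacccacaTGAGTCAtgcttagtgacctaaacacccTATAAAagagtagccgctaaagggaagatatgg
Mmp15: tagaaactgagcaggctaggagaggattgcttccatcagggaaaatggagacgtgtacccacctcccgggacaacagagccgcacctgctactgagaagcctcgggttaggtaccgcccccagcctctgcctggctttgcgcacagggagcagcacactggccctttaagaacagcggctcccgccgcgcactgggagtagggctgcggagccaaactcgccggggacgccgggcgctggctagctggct
Timp1: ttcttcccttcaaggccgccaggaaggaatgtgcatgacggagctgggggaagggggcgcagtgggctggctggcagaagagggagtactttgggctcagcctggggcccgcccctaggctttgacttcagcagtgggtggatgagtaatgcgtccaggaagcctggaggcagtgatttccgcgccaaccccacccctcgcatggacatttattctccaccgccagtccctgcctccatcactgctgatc

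The Mmp3 window holds the AP-1 element 71 bases before the start and a TATA box 32 bases before it. The Mmp10 window holds the AP-1 element 61 bases before the start and a TATA box 33 bases before it. Upstream, the Mmp10 window also has 2 overlapping TATA matches on opposite strands, 198 and 196 bases before the start, and a homeodomain core 225 bases before it. None of these exact strings was found in the windows of Mmp15, Timp1, Timp2, Timp3 or Timp4. Sites that differ from a string by a base were not searched for, so a window without a match may still hold such a site. Of all 33469 rat promoter windows, 4.63% hold the AP-1 element, 14.2% the TATA box, 5.36% the homeodomain core and 0.762% both the AP-1 element and the TATA box. A match is a string of letters in this window and no evidence of binding.

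**Figure D1:**
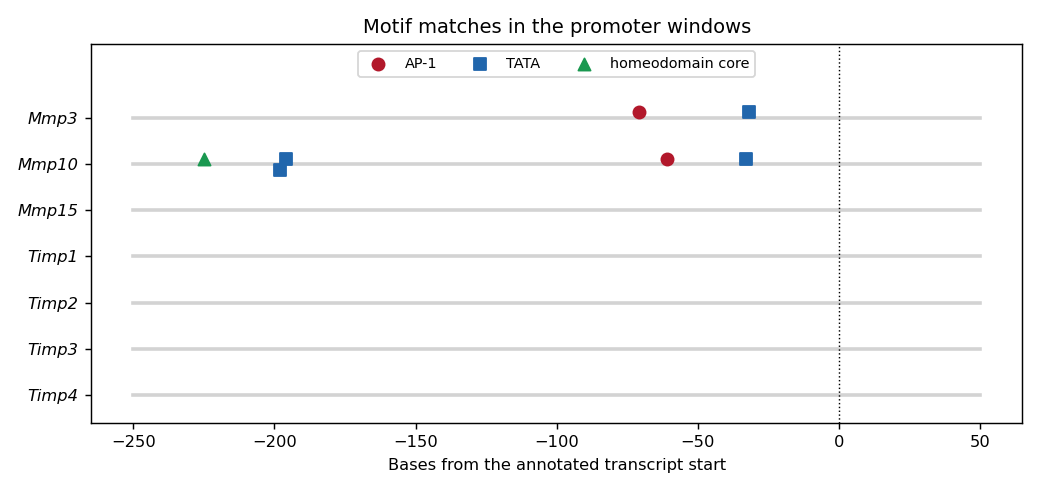
Motif matches in the promoter windows of the 7 genes found in RefSeq, by distance in bases from the annotated transcript start (dotted line); markers above a grey line lie on the gene's strand, those below it on the other strand. Mmp3 and Mmp10 carry an AP-1 element 71 and 61 bases before the start, each followed by a TATA box. The other 5 windows hold no match to the exact strings searched.

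Mmp3 and Mmp10 encode the stromelysins, secreted enzymes that cut many non-collagen matrix proteins and activate other proenzymes. Mmp3 averaged 2128 normalized counts in siBsx cells, 575 in siLhx4 cells and 2593 in siNT cells. The implied spread between libraries was 8.52% of the mean, against a median of 5.91% among 4035 genes of like mean, and stood at percentile 97.8 of these. With siLhx4, Mmp3 fell by 2.17 ± 0.11 (log2, SE) in the authors' deposited table, to 22.2% of the siNT mean (95% interval of the change -80.8% to -74.4%; adjusted p by DESeq2 = 1.98e-88). By size this was number 2 among the 14876 tested genes, behind Lhx4 itself. With siBsx, Mmp3 fell by 0.28 ± 0.10 in the authors' deposited table, a change of -17.9% (adjusted p by DESeq2 = 0.0372). The knockdowns differed: Mmp3 was 3.71-fold higher in siBsx cells than in siLhx4 cells (95% interval 3.20 to 4.29; adjusted p = 1.33e-66, Wald test rebuilt from the DESeq2 tables).

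Mmp10 averaged 303 normalized counts in siBsx cells, 151 in siLhx4 cells and 323 in siNT cells, with an implied spread between libraries of 13.0%. With siLhx4 it fell by 1.09 ± 0.17 (log2, SE) in the authors' deposited table, a change of -53.1% (95% interval -62.9% to -40.8%; adjusted p by DESeq2 = 7.79e-09). That placed it at 117 of 14876 tested genes by size. With siBsx its change in the authors' deposited table was -0.09 ± 0.17, within the spread (95% interval -25.1% to 17.9%; adjusted p by DESeq2 = 0.805). Mmp10 was 2.01-fold higher in siBsx cells than in siLhx4 cells (95% interval 1.58 to 2.54; adjusted p = 1.37e-07, Wald test rebuilt from the DESeq2 tables). Mmp3 and Mmp10 are similar in sequence, and the counting of reads that match both is not stated, which leaves the division of reads between them uncertain.

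**Figure D2:**
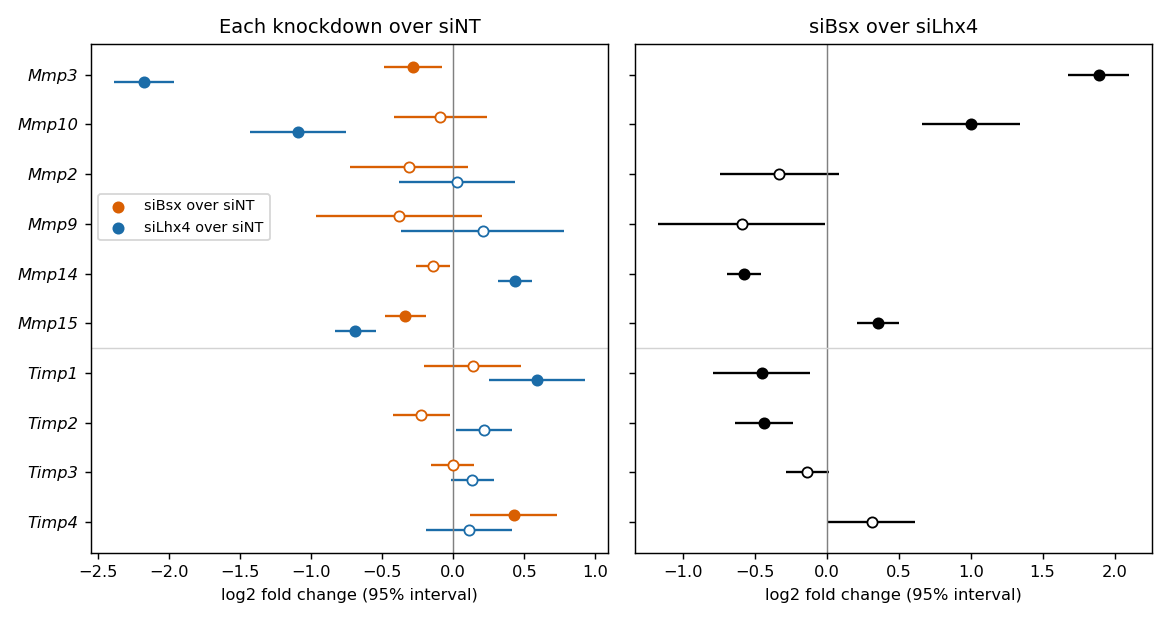
Log2 fold changes of the 10 genes with 95% intervals (bars), for each knockdown over siNT (left: siBsx orange, siLhx4 blue) and for siBsx over siLhx4 (right); filled points passed an adjusted p of 0.05, open points did not, and the grey line separates metalloproteinases from inhibitors. Mmp3 and Mmp10 lie at -2.17 and -1.09 with siLhx4, while Mmp14 and Timp1 lie above 0 there.

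Mmp3 and Mmp10 sit in a run of 10 neighbouring protein-coding metalloproteinase genes on rat chromosome 8. In RefSeq order the genes are Mmp13, Mmp12, Mmp1b, Mmp3, Mmp1, Mmp10, Mmp8, Mmp27, Mmp20 and Mmp7, which encode collagenases, stromelysins, macrophage elastase, matrilysin and the enamel enzyme Mmp20. Only Mmp13, Mmp3 and Mmp10 had enough counts to be tested. The other 7 had deposited means between 1.38 and 14.6 normalized counts over the 6 libraries of a table. Mmp13, a collagenase, averaged 45.9 normalized counts in siBsx cells, 71.5 in siLhx4 cells and 63.2 in siNT cells. The authors' deposited tables gave it log2 fold changes of -0.46 ± 0.87 with siBsx and 0.18 ± 0.86 with siLhx4 (adjusted p by DESeq2 = 0.808 and 0.936). Its implied spread between libraries was 72.4% of the mean, against a median of 28.5% among 2618 genes of like mean, and a change as large as that of Mmp10 lay inside its interval with siLhx4. Within the run, the AP-1 element was present in the promoter windows of 6 of the 10 genes: Mmp13, Mmp12, Mmp3, Mmp1, Mmp10 and Mmp7. All 6 also held a TATA box, and Mmp13, which did not pass the test, has the same pair of motifs as Mmp3 and Mmp10. The remaining genes of the list lie elsewhere, Mmp2 and Mmp15 on chromosome 19, Mmp9 on 3, Mmp14 on 15, Timp1 on X, Timp2 on 10, Timp3 on 7 and Timp4 on 4.

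**Figure D3:**
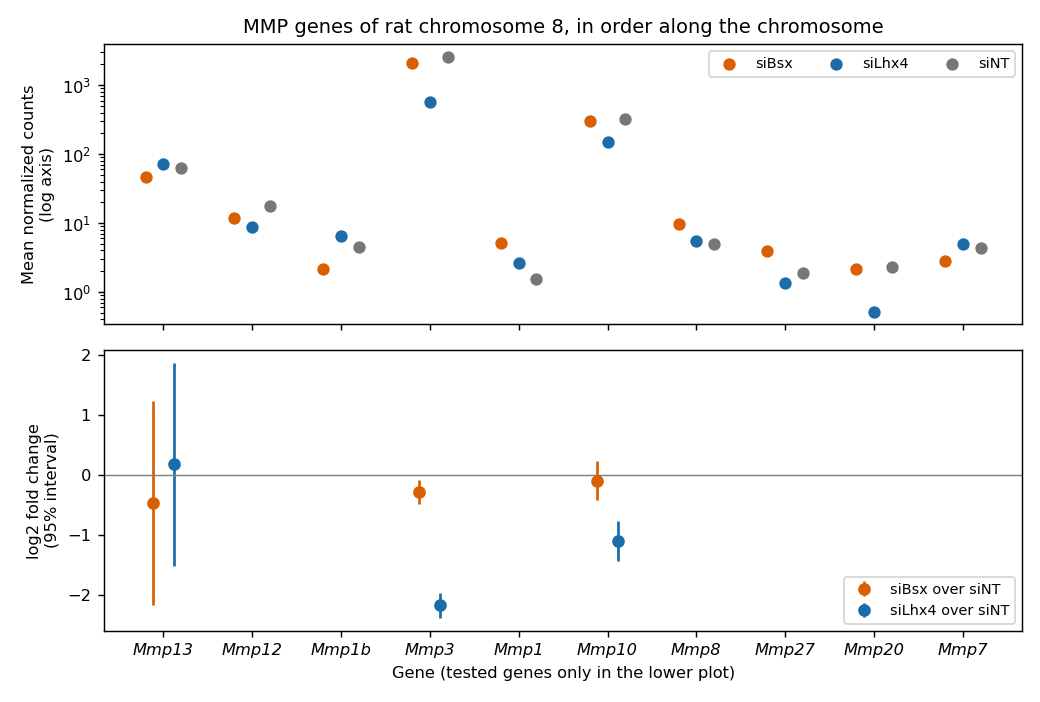
The 10 metalloproteinase genes of rat chromosome 8 in order along the chromosome (not to scale), with mean normalized counts per group on a log axis (top) and log2 fold changes with 95% intervals for the 3 tested genes (bottom). Mmp3 and Mmp10 stand far above the 7 untested genes in counts and fell with siLhx4, while the intervals of Mmp13 span 0 in both comparisons.

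Mmp2 and Mmp9 encode the gelatinases, which cut denatured collagen and the type IV collagen of basement membranes. Neither passed in any of the 3 comparisons. Mmp2 averaged 216 normalized counts in siBsx cells, 271 in siLhx4 cells and 267 in siNT cells. Its log2 fold changes in the authors' deposited tables were -0.31 ± 0.21 with siBsx and 0.02 ± 0.21 with siLhx4 (adjusted p by DESeq2 = 0.375 and 0.965). With siLhx4 the 95% interval of Mmp2 ran from -23.4% to 34.9%, so a change as large as that of Mmp3 or Mmp10 lies outside it. Mmp9 averaged 143 normalized counts in siBsx cells, 215 in siLhx4 cells and 186 in siNT cells, and was the most variable of the 10 genes, with an implied spread between libraries of 24.0%, against a median of 16.8% among genes of like mean. Its log2 fold changes in the authors' deposited tables were -0.38 ± 0.30 with siBsx and 0.21 ± 0.29 with siLhx4 (adjusted p by DESeq2 = 0.450 and 0.722). Mmp9 differed by -0.59 ± 0.30 between siBsx and siLhx4 cells, which did not pass after adjustment (adjusted p = 0.144, Wald test rebuilt from the DESeq2 tables).

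Mmp14 and Mmp15 encode membrane-type metalloproteinases, which stay anchored in the plasma membrane; Mmp14 is known for activating the Mmp2 proenzyme. The pair moved in opposite directions with siLhx4. Mmp14 averaged 2681 normalized counts in siBsx cells, 3996 in siLhx4 cells and 2957 in siNT cells, with the smallest implied spread of the 10 genes, 4.79%. With siLhx4 it rose by 0.43 ± 0.059 (log2, SE) in the authors' deposited table, or 35.1% (95% interval 24.6% to 46.5%; adjusted p by DESeq2 = 1.56e-11). With siBsx its change in the authors' deposited table was -0.14 ± 0.061 and was not called (adjusted p by DESeq2 = 0.0926). Between the knockdowns Mmp14 was lower by 32.9% in siBsx cells than in siLhx4 cells, a log2 difference of -0.58 ± 0.060 (adjusted p = 4.24e-20, Wald test rebuilt from the DESeq2 tables). Summed fibroblast markers ran the same way as Mmp14, with 2120 normalized counts in siBsx cells, 3740 in siLhx4 cells and 2544 in siNT cells, and their part in the rise was not tested.

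Mmp15 averaged 1971 normalized counts in siBsx cells, 1546 in siLhx4 cells and 2492 in siNT cells, with an implied spread of 5.91%. It fell in both knockdowns, by 0.34 ± 0.074 with siBsx and by 0.69 ± 0.074 with siLhx4 in the authors' deposited tables (adjusted p by DESeq2 = 8.34e-05 and 1.48e-18). In percent the changes were -20.9% with siBsx and -38.0% with siLhx4. The fall was larger with siLhx4: Mmp15 was 1.28-fold higher in siBsx cells than in siLhx4 cells (95% interval 1.15 to 1.41; adjusted p = 3.25e-05, Wald test rebuilt from the DESeq2 tables). Both comparisons use the same siNT libraries.

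**Figure D4:**
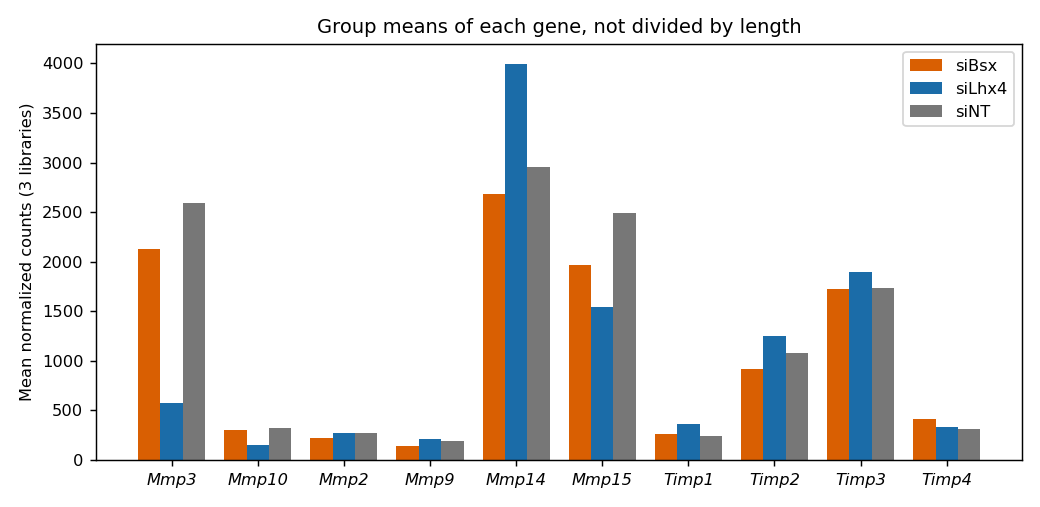
Mean normalized counts of the 10 genes in siBsx, siLhx4 and siNT cells (bars, 3 libraries each, no error bar because values per library are not used here); counts are not divided by gene length, so heights compare groups within a gene and not genes with each other. Mmp3 stands at 575 in siLhx4 cells against 2593 in siNT cells, and Mmp14 at 3996 against 2957.

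Timp1, an inducible inhibitor of most soluble metalloproteinases, averaged 264 normalized counts in siBsx cells, 360 in siLhx4 cells and 240 in siNT cells. With siLhx4 Timp1 rose by 0.59 ± 0.17 (log2, SE) in the authors' deposited table, or 50.5% (95% interval 19.2% to 90.0%; adjusted p by DESeq2 = 0.00547). With siBsx the deposited change of Timp1 was 0.14 ± 0.18 in the authors' table (adjusted p by DESeq2 = 0.699). Timp1 was lower by 27.0% in siBsx cells than in siLhx4 cells (adjusted p = 0.0384, Wald test rebuilt from the DESeq2 tables). Summed astrocyte markers were also highest with siLhx4, at 12689 normalized counts in siBsx cells, 18746 in siLhx4 cells and 15002 in siNT cells. The most abundant, Vim and Apoe, averaged 6312 and 3435 normalized counts in siLhx4 cells and 4453 and 2666 in siNT cells. With siLhx4, 6 of 9 tested markers lay above 0, and Gja1, Slc1a3 and S100b lay below 0 and were not called. Gfap, Aqp4 and Aldh1l1 had means of at most 11.6. The part of these markers in the rise of Timp1 was not tested.

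Timp2, which inhibits metalloproteinases and also joins Mmp14 in activating the Mmp2 proenzyme, averaged 922 normalized counts in siBsx cells, 1250 in siLhx4 cells and 1076 in siNT cells. Its deposited log2 fold changes in the authors' tables were -0.22 ± 0.10 with siBsx and 0.22 ± 0.10 with siLhx4, and neither was called (adjusted p by DESeq2 = 0.131 and 0.133). The knockdowns differed from each other, with Timp2 lower by 26.3% in siBsx cells than in siLhx4 cells (log2 -0.44 ± 0.10; adjusted p = 0.000191, Wald test rebuilt from the DESeq2 tables). Timp2 is the only one of the 10 genes called in this difference but in neither comparison with siNT.

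Timp3, a matrix-bound inhibitor that also acts on ADAM proteases, averaged 1728 normalized counts in siBsx cells, 1898 in siLhx4 cells and 1733 in siNT cells. The 95% intervals of its change ran from -10.3% to 10.8% with siBsx and from -1.34% to 21.7% with siLhx4, and no comparison called it. Timp4, an inhibitor best known from heart and brain, averaged 414 normalized counts in siBsx cells, 333 in siLhx4 cells and 308 in siNT cells. With siBsx it rose by 0.42 ± 0.16 in the authors' deposited table, or 34.2% (95% interval 8.64% to 65.7%; adjusted p by DESeq2 = 0.0395), the largest deposited rise among the 10 genes in that comparison. With siLhx4 the authors' deposited table gave Timp4 a change of 0.11 ± 0.16 (adjusted p by DESeq2 = 0.717). The difference of Timp4 between the knockdowns, 0.31 ± 0.15, did not pass after adjustment (adjusted p = 0.138, Wald test rebuilt from the DESeq2 tables).

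Counted over the list, siBsx called 3 of the 10 genes, where 17.2% of all tested genes were called. One was higher (Timp4; 7.59% of tested genes were called higher) and the other two lower (Mmp3 and Mmp15; 9.61% were called lower). With siLhx4, 5 of the 10 were called, against 17.7% of tested genes. Mmp14 and Timp1 were higher (8.07% of tested genes were), and Mmp3, Mmp10 and Mmp15 lower (9.59% were). Between siBsx and siLhx4, 6 were called, against 22.9% of tested genes. Mmp3, Mmp10 and Mmp15 were higher in siBsx cells (10.9% of tested genes were), and Mmp14, Timp1 and Timp2 lower (12% were). The median log2 fold change of the 6 metalloproteinases was -0.30 with siBsx and -0.33 with siLhx4, and that of the 4 inhibitors was 0.07 with siBsx and 0.17 with siLhx4. None of the 6 metalloproteinases lay above 0 with siBsx, while 3 did with siLhx4, where they ran from -2.17 to 0.43. Since the list was chosen on these contrasts, nothing is read from its share against the background.

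The calls depend on the reference distribution. Under a t distribution with 6 degrees of freedom in place of the normal, 0 of the 10 genes passed with siBsx, 4 with siLhx4 and 4 in the difference. With 4 degrees of freedom 0 passed with siBsx, 0 with siLhx4 and 2 in the difference, while 1 gene of all tested passed with siLhx4.

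Besides Mmp1b of the chromosome 8 run, which was not tested, 15 further Mmp genes were listed and measured. Of these 15, 6 were tested and 9 had means of at most 15.5 normalized counts. Mmp24, which encodes a membrane-type enzyme known from neurons, had the most counts of these, averaging 1328 in siBsx cells, 1521 in siLhx4 cells and 1422 in siNT cells, and passed in no comparison. With siBsx 1 of the 6 passed, where 17.2% of tested genes did: Mmp17, which encodes a lipid-anchored membrane-type enzyme, fell by 0.99 ± 0.25 in the authors' deposited table (adjusted p by DESeq2 = 0.000849). With siLhx4 none of the 6 passed, where 17.7% of tested genes did, and their median log2 fold change was 0.10. Mmp17 averaged 92.8 normalized counts in siBsx cells, 151 in siLhx4 cells and 184 in siNT cells, and was lower in siBsx than in siLhx4 cells by a log2 difference of -0.71 ± 0.25 (adjusted p = 0.0230, Wald test rebuilt from the DESeq2 tables).

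Among restraints other than TIMPs and surface partners of metalloproteinases, 11 of 13 were tested. The list pools both kinds, so its counts and medians do not measure restraint. With siLhx4, 8 rose and none fell, with a median of 0.35, where 8.07% of all tested genes rose and 9.59% fell. The 8 were Lrp1, Spock2, A2m, Tfpi2, Cav1, Cd44, Bsg and Itgav. The endocytic receptor Lrp1, which clears proteinases, rose by 0.39 ± 0.052 in the authors' deposited table (adjusted p by DESeq2 = 7.59e-12). The proteoglycan Spock2 rose by 0.51 ± 0.078, the broad plasma inhibitor A2m by 0.35 ± 0.068 and the serine protease inhibitor Tfpi2 by 0.68 ± 0.15 in the authors' deposited table (adjusted p by DESeq2 = 3.09e-09, 6.13e-06 and 0.000156). With siBsx 2 of the 11 rose and 3 fell, with a median of 0.08, where 7.59% of all tested genes rose and 9.61% fell. The membrane-anchored inhibitor Reck fell by 0.66 ± 0.088 with siBsx in the authors' deposited table (adjusted p by DESeq2 = 2.30e-12), and Lrp1 fell by 0.30 ± 0.053 (adjusted p by DESeq2 = 5.48e-07). A2m rose by 0.46 ± 0.068 and Spock2 by 0.35 ± 0.079 with siBsx in the same authors' table (adjusted p by DESeq2 = 2.68e-10 and 0.000109). Reck averaged 906 normalized counts in siBsx cells, 1370 in siLhx4 cells and 1434 in siNT cells, so its level with siLhx4 stayed near that of siNT (log2 -0.07 ± 0.085; adjusted p by DESeq2 = 0.696 in the authors' deposited table). Between siBsx and siLhx4, 5 of the 11 were called and all 5 were lower in siBsx cells, as 12% of all tested genes were. The fibroblast and astrocyte sums given with Mmp14 and Timp1 were likewise higher in siLhx4 than in siNT cells, and what part they have in the counts of this list, the plasminogen list and the matrix list was not tested.

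The plasminogen system supplies plasmin, an activator of several proenzymes. Of its 6 tested genes reported here, 3 rose with siLhx4 and none fell, with a median of 0.35 (8.07% of all tested genes rose and 9.59% fell). In the authors' deposited table the serpin gene Serpine2 rose by 0.71 ± 0.088, the tissue activator Plat by 0.43 ± 0.091 and the urokinase gene Plau by 0.92 ± 0.24 (adjusted p by DESeq2 = 8.07e-14, 5.17e-05 and 0.00158). Serpine2 encodes an inhibitor of serine proteases, and Plat and Plau encode activators of plasminogen. With siBsx, Plau rose by 0.77 ± 0.24 and Serpine2 fell by 0.25 ± 0.090 in the authors' deposited table (adjusted p by DESeq2 = 0.0126 and 0.0354), with a median of -0.03 over the 6 (7.59% of all tested genes rose and 9.61% fell). Serpine2 and Plat were lower in siBsx than in siLhx4 cells, by log2 differences of -0.96 ± 0.089 and -0.57 ± 0.091 (adjusted p = 4.23e-25 and 9.33e-09, Wald test rebuilt from the DESeq2 tables).

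Of 8 tested ADAM genes, 1 passed in each knockdown, where 17.2% of all tested genes passed with siBsx and 17.7% with siLhx4. It was Adam12, which fell by 0.42 ± 0.13 with siBsx and by 0.79 ± 0.13 with siLhx4 in the authors' deposited tables (adjusted p by DESeq2 = 0.0102 and 5.86e-08). Adam10 and Adam17, the main ectodomain sheddases and targets of Timp3, did not pass in either knockdown. Of 13 tested ADAMTS genes, which encode aggrecanases and related secreted enzymes, 1 rose and 2 fell with siBsx, and 1 rose with siLhx4. Of all tested genes, 7.59% rose and 9.61% fell with siBsx, and 8.07% rose and 9.59% fell with siLhx4. Adamts1 rose in both, by 0.38 ± 0.12 with siBsx and 0.36 ± 0.12 with siLhx4 (adjusted p by DESeq2 = 0.00922 and 0.0117 in the authors' deposited tables). Adamts9 and Adamts7 fell with siBsx by 0.51 ± 0.15 and 0.47 ± 0.16 in the authors' deposited table (adjusted p by DESeq2 = 0.00475 and 0.0265). The 4 proprotein convertases that cleave membrane-type proenzymes did not pass in either knockdown, where 17.2% and 17.7% of all tested genes did. Between the knockdowns 2 of the 4 passed, where 22.9% of all tested genes did. Furin and Pcsk6 were lower in siBsx than in siLhx4 cells, by -0.22 ± 0.058 and -0.70 ± 0.21 (adjusted p = 0.00147 and 0.00594, Wald test rebuilt from the DESeq2 tables).

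The non-collagen matrix proteins that these enzymes cut were tested for 20 genes. With siBsx 3 rose and 8 fell, with a median of -0.19, where 7.59% of all tested genes rose and 9.61% fell. The laminin chain Lama5 fell by 0.67 ± 0.11, the heparan sulfate proteoglycan Agrn by 0.58 ± 0.12 and the nidogens Nid1 and Nid2 by 0.48 ± 0.12 and 0.37 ± 0.091 in the authors' deposited table (adjusted p by DESeq2 = 5.31e-08, 5.72e-05, 0.000445 and 0.000500). With siLhx4 5 rose and 1 fell, with a median of 0.16, where 8.07% of all tested genes rose and 9.59% fell. Fibrillin Fbn1 rose by 0.94 ± 0.11, Nid2 by 0.42 ± 0.089 and Sparc by 0.40 ± 0.13 in the authors' deposited table, and the laminin chain Lama2 fell by 0.29 ± 0.085 (adjusted p by DESeq2 = 2.92e-15, 4.07e-05, 0.0189 and 0.00558). Nid2 therefore moved in opposite directions, and was lower in siBsx than in siLhx4 cells by a log2 difference of -0.80 ± 0.090 (adjusted p = 4.80e-17, Wald test rebuilt from the DESeq2 tables). In that difference 12 of the 20 were lower in siBsx cells and 2 higher, where 12% of all tested genes were lower and 10.9% higher.

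Transcription factors known to act on metalloproteinase promoters were all tested, 17 genes. With siBsx 7 rose and 2 fell, with a median of 0.16, and with siLhx4 3 rose and 1 fell, with a median of 0.14. Of all tested genes, 7.59% rose and 9.61% fell with siBsx, and 8.07% rose and 9.59% fell with siLhx4. The AP-1 gene Junb rose by 0.32 ± 0.066 with siBsx and 0.39 ± 0.066 with siLhx4 in the authors' deposited tables (adjusted p by DESeq2 = 2.13e-05 and 6.73e-08). Fosb rose by 0.59 ± 0.12 with siBsx and 0.44 ± 0.12 with siLhx4, and Fosl2 by 0.31 ± 0.12 with siLhx4, in the same authors' tables (adjusted p by DESeq2 = 3.97e-05, 0.00338 and 0.0418). Stat3, a cytokine-responsive factor, fell by 0.22 ± 0.048 with siBsx and 0.25 ± 0.048 with siLhx4 in the authors' deposited tables (adjusted p by DESeq2 = 5.43e-05 and 4.92e-06). Sp1 fell by 0.25 ± 0.062 with siBsx in the authors' deposited table (adjusted p by DESeq2 = 0.000781). These are mRNA levels, and the activity of the factors was not measured. Between siBsx and siLhx4, 3 of the 17 were called, where 22.9% of all tested genes were. Ets1 was lower in siBsx cells by -0.50 ± 0.14, and Fos and Elk1 were higher by 0.34 ± 0.10 and 0.23 ± 0.090 (adjusted p = 0.00249, 0.00451 and 0.0462, Wald test rebuilt from the DESeq2 tables).

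**Figure D5:**
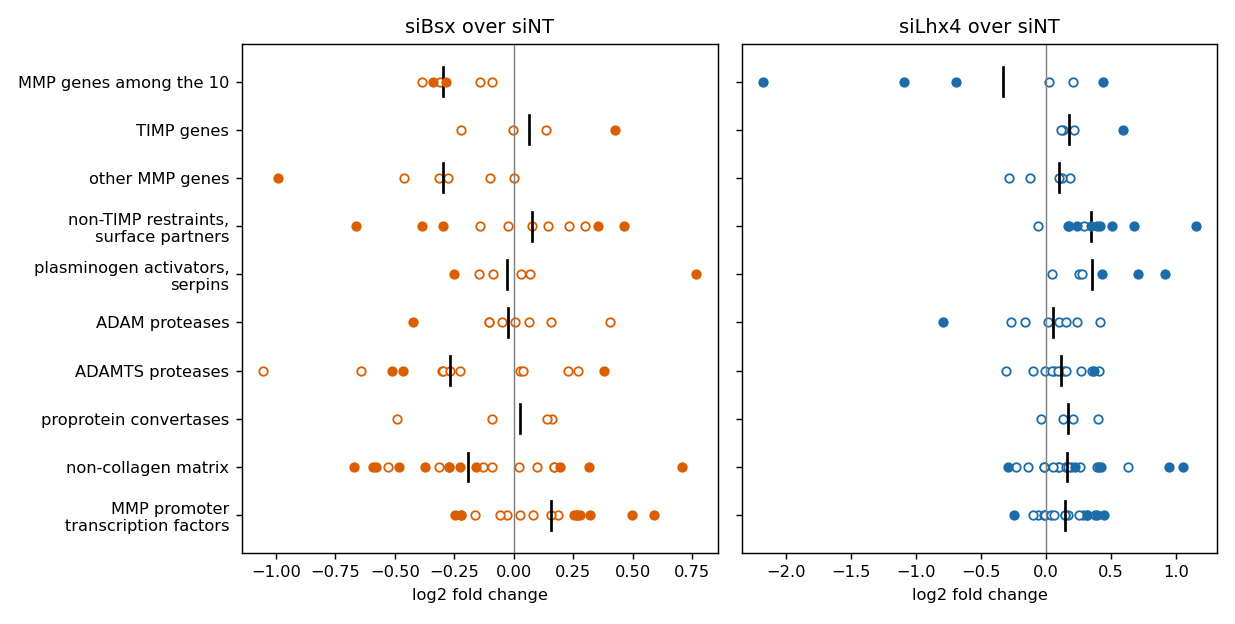
Log2 fold changes of the tested genes in each list (points) with the list's median (black bar), for siBsx over siNT (left) and siLhx4 over siNT (right); filled points passed an adjusted p of 0.05, open points did not. With siLhx4 the restraints and surface partners and the plasminogen genes each have a median of 0.35, while Mmp3, Mmp10 and Mmp15 lie below 0.

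Markers of cell types other than pinealocytes were counted too, beside the shares over all tested genes. With siBsx 7.59% of all tested genes rose and 9.61% fell, and with siLhx4 8.07% rose and 9.59% fell. Of 11 tested fibroblast markers, 3 rose with siLhx4 and none fell, led by Col6a2, and 2 fell with siBsx. Their summed level was given with Mmp14, and the fibroblast marker Lum had a mean of 0 in the siBsx table. Of 9 tested astrocyte markers, 4 rose with siLhx4 (among them Vim and Apoe) and 4 fell with siBsx. The defining astrocyte markers Gfap, Aqp4 and Aldh1l1 were not tested and had means of at most 11.6. The mural list summed to 3690 in siBsx cells, 10051 in siLhx4 cells and 7213 in siNT cells, with 2 of 6 tested genes lower with siBsx and 1, Myh11, higher with siLhx4. Myh11 carries most of that sum, with 2953 normalized counts in siBsx cells, 8932 in siLhx4 cells and 6200 in siNT cells, and the defining mural markers Acta2, Rgs5 and Kcnj8 were not tested and had means of at most 32.5. Endothelial markers summed to 901 in siBsx cells, 1226 in siLhx4 cells and 879 in siNT cells (1 of 7 rose with siLhx4, none passed with siBsx). Schwann cell markers summed to 1572 in siBsx cells, 1817 in siLhx4 cells and 1511 in siNT cells (1 of 6 rose with siLhx4, none passed with siBsx). Microglial markers summed to 525 in siBsx cells, 458 in siLhx4 cells and 470 in siNT cells (1 of 4 rose with siBsx, none passed with siLhx4). The pinealocyte list, which contains Lhx4 and Bsx themselves, had 13 tested genes; 5 rose and 5 fell with siBsx, and 8 fell with siLhx4. The pinealocyte list summed to 538867 in siBsx cells, 436946 in siLhx4 cells and 576398 in siNT cells, and Tph1 carries most of that sum. Mmp14 and Timp1 were higher with siLhx4, as were the fibroblast, astrocyte, mural, endothelial and Schwann cell sums. Mmp14, Timp1 and Timp2 were lower in siBsx than in siLhx4 cells, as were those same sums. In those same comparisons Mmp3, Mmp10 and Mmp15 moved the other way, as did the pinealocyte sum. With siBsx, the fibroblast, astrocyte, mural and pinealocyte sums were lower than with siNT, and Mmp3 and Mmp15 were called lower there as well. What part the makeup of the cultures has in these values was not tested.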

How the data were processed

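In all, 9 libraries of rat pinealocytes were compared, 3 per group. The genome build in the submitters' processing notes is rn6, and the tools named there are DESeq2 1.16.1, featureCounts, Subread 1.5.2, STAR 2.5.4a and bcl2fastq 2.20.0.422; annotation, strand setting and treatment of multi-mapping reads are not given in the sources used here, although the kit marks strand.

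The authors deposited, for each knockdown against siNT, a mean normalized signal per gene (counts divided by size factors), a log2 fold change and DESeq2 p-values with Benjamini-Hochberg adjustment; the siBsx table also holds a standard error and a Wald score. The authors' score equals fold change over standard error. Values per library were deposited for 14 genes, including none of the 10.

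Group means were computed from each deposited mean and fold change, and averaged for siNT, where the tables differed by at most 1.00342-fold for the 10 genes. Standard errors with siLhx4 were obtained from fold change and p. For siBsx over siLhx4, a Wald test was rebuilt from group means and each table's dispersion, adjusted over 14876 genes, and tried on simulated data. The simulation took the dispersions as known and the size factors as equal. It therefore cannot show how the test fares when the dispersion is estimated from 3 libraries per group. The members and lists were chosen with earlier results of these data known. All 10 genes are named, and of each pathway list at most 4 called genes per comparison with the smallest adjusted p. Adam10, Adam17, Mmp13, Mmp24, Tph1 and Reck with siLhx4 were added after their values were seen, as were Cav1, Cd44, Bsg and Itgav with siLhx4. Proteins were not used here, and 1 gene of the plasminogen list is not reported here. Python 3.11.15, numpy 2.4.6, pandas 2.3.3, scipy 1.17.1 and matplotlib 3.10.9 were used.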

Additional observations from a re-analysis of the deposited data

How the results depend on the processing

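All alternatives but centring on the median leave the fold changes as deposited, so they bear on calls and not on directions. With siBsx, 3 genes were called; 0 remained under a t distribution with 4 or 6 degrees of freedom, 1 (Mmp15) without a filter on low values or at an adjusted p of 0.01, 0 with a 1.5-fold change, and 3 with means of at least 50 or centring on the median. With siLhx4, 5 were called; 0 were called with 4 degrees of freedom and 4 with 6 (Timp1 lost), 4 with a 1.5-fold change (Mmp14 lost), and 5 otherwise. For siBsx over siLhx4, 6 were called; 2 were with 4 degrees of freedom (Mmp3, Mmp14), 4 with 6 (Timp1 and Timp2 lost), 2 with a 1.5-fold change (Mmp3, Mmp10), 6 with means of at least 50 or centring, and 5 (Timp1 lost) without a filter, at 0.01 and with the tables' variances summed. Heavier tails and stricter thresholds call fewer genes by construction.

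Over all tested genes, the count with siBsx was 2558, against 36 with 4 and 795 with 6 degrees of freedom and 555 with a 1.5-fold change. With siLhx4 it was 2626, against 1, 699 and 552 under the same settings. For siBsx over siLhx4 it was 3413, against 292, 1323 and 963, and 1645 with summed variances.

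No paired analysis was possible because the 10 genes have no values per library in the tables used here; leaving out each library was not run for the same reason. Precision is limited by 3 libraries per group and, for the untested genes of the chromosome 8 run, by low counts. The implied spread of Mmp3, Mmp9 and Mmp13 stood at percentiles 97.8, 94.1 and 99.6 among genes of like mean.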
